A study of Mus musculus with 36 samples.

Results

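The genes described here are 8 markers of bile ducts and of the ductular reaction: Krt7, Krt19, Krt23, Epcam, Sox9, Cftr, Prom1 and Cd24a. They were chosen by symbol, 8 of the 49315 genes in a table of TPM (transcripts scaled to a fixed total per library) from 36 mouse liver samples, and each symbol occurred once. PolyA RNA was sequenced from male mice aged 11 to 12 weeks, with 4 livers in each of 9 groups. The study used mice in which CRISPR editing changed tryptophan 441 of the liver X receptor LXRalpha, a sterol-sensing nuclear receptor, to phenylalanine. W/W mice kept tryptophan on both alleles, W/F mice were heterozygous and F/F mice were homozygous for phenylalanine. The labels write Nr1h2 beside LXRalpha, whose usual symbol is Nr1h3. Each genotype was studied on normal chow, on a steatohepatitis-promoting (MASH) diet high in cholesterol and fat (Teklad TD.96121, 4 weeks) with vehicle, and on that diet with T0901317, a synthetic LXR agonist given at 10 mg/kg by gavage daily for the last 2 weeks. The allele is not restricted to a cell type by any label, and how many founders the line had is not stated in the labels. The labels number the samples but name no animals, so p-values measure the spread between samples within groups, pooled over the 9 groups. Chow mice came from a separate cohort and are listed with 0 weeks of gavage, where vehicle mice had 2 weeks. The effects of diet, gavage and cohort therefore cannot be told apart within a genotype, and a difference with the diet includes all of them. A change of a single residue leaves gene-level TPM with no check of the genotype labels.

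Bile ducts are lined by cholangiocytes, epithelial cells that carry keratins and surface proteins which mature hepatocytes largely lack and that modify bile by secreting chloride and bicarbonate. In many forms of chronic liver injury, cells with cholangiocyte features accumulate at the edge of the portal tracts, a change called a ductular reaction, often together with scar-forming stellate cells and inflammatory cells. Notch and YAP signalling are known regulators of the biliary fate. Krt7 and Krt19 encode the keratins used to stain bile ducts, and Krt23 encodes a further keratin found in ductular reactions. Epcam encodes an epithelial adhesion molecule, Cd24a a surface glycoprotein and Prom1 the progenitor marker CD133. Sox9 encodes a transcription factor of the biliary lineage, and Cftr encodes the chloride channel of the ductal apical membrane.

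The 8 genes lie on 6 chromosomes of GRCm38: Krt7 at chr15:101411043-101430313 on the forward strand, Krt19 at chr11:100140810-100148665 on the reverse strand, Krt23 at chr11:99477974-99493137 on the reverse strand, Epcam at chr17:87635979-87651129 on the forward strand, Sox9 at chr11:112782224-112787760 on the forward strand, Cftr at chr6:18170687-18322768 on the forward strand, Prom1 at chr5:43993620-44102032 on the reverse strand and Cd24a at chr10:43578284-43584265 on the forward strand. The bases just before the annotated starts of 3 of them are shown because Epcam rose and fell with most of the set, Krt23 departed from it under T0901317, and Cftr was the least abundant. The sequences are those of RefSeq on build GRCm38.p6, 5′ to 3′ on the gene's own strand, and the 6 capitals mark ATAAAA.
Epcam: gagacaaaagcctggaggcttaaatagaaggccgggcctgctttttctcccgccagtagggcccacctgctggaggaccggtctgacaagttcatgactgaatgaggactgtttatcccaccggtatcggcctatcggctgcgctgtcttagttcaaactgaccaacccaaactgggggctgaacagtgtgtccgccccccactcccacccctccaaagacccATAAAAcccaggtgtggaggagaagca
Krt23: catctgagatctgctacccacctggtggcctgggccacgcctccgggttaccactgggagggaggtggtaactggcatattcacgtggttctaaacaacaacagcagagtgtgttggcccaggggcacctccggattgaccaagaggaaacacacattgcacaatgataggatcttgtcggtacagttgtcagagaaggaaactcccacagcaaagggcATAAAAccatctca
Cftr: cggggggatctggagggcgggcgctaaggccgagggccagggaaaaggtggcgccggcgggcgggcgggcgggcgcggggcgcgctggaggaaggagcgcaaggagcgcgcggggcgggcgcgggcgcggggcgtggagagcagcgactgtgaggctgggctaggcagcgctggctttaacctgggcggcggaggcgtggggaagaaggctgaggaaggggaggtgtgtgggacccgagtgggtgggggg
The Krt23 window leaves out the bases that lie in an annotated exon. The Epcam window is chr17:87635729-87635978, the Krt23 window is chr11:99493138-99493370 and the Cftr window is chr6:18170437-18170686. ATAAAA stood 27 bases before the start in Epcam and 31 bases before the RefSeq start in Krt23, and it occurs on either strand in 17.0% of all 32851 windows of 250 bases. It was chosen after the sequences were seen. The Cftr window was 76.4% G and C, against a median of 52.4% over all windows. None of 5 further motifs, searched on both strands, was found in these 3 windows: GGAATG of TEAD factors (12.6% of all windows), TGANTCA of AP-1 (6.75%), GTGGGAA of RBPJ (5.42%), GTTAAT of HNF1 (6.43%) and AGGTCA of nuclear receptors (14.0%). TGANTCA was searched with any base at N, which is looser than the AP-1 site, and its share of windows counts every such match. In the RefSeq windows of Prom1 it was found as TGACTCA, 88 bases before the start, and as TGAATCA, 189 bases before the other start. All 250 bases of the window with TGACTCA lie in annotated exons. These matches describe the letters of the windows and no factor's binding. Krt7 also has a RefSeq window, whereas Krt19, Sox9 and Cd24a had no entry in the table used.

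Sequencing depth, recovered from the steps between low TPM values, ran from 18.1 to 35.8 M reads assigned to genes, with a median of 23.9 M. Albumin stood between 18000 and 69070 TPM in all 36 libraries. In the rest of the transcriptome 2 libraries are named for what they carried. W/W vehicle replicate 1 carried pancreatic acinar transcripts, with Ctrb1 at 58.1 TPM and Prss2 at 37.2 TPM where the other 3 libraries had at most 0.115 and 0.241 TPM. W/F T0901317 replicate 2 had 27.5 TPM of the collagen gene Col1a1 against 5.66 to 9.20 TPM in its group and lay apart from it on the first principal component (1.005 against 44.88 to 54.45), but its summed level of the 8 genes, 21.1 TPM, was within the 19.98 to 27.9 TPM of the other 3. Genes were tested with limma on log2(TPM + 1) when at least 1 TPM was reached in at least 4 libraries, which left 16638 genes, and a difference is called when its adjusted p (Benjamini-Hochberg over all of them) is under 0.05. All 8 markers passed this filter, but Krt7, Cftr and Prom1 reached 1 TPM in 0 of the W/W libraries and passed only through 16, 8 and 16 libraries of W/F and F/F mice. For these 3 genes a difference from low groups is a description, and counts over all 8 genes include them. The medians given in the text below are those of the other 5, Krt19, Krt23, Epcam, Sox9 and Cd24a, which reached 1 TPM in 10 or more W/W libraries. Differences are given on the log2(TPM + 1) scale, which understates the change of such low genes. In bulk RNA a smaller number of cells of a type and less RNA per cell cannot be told apart.

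**Figure D1:**
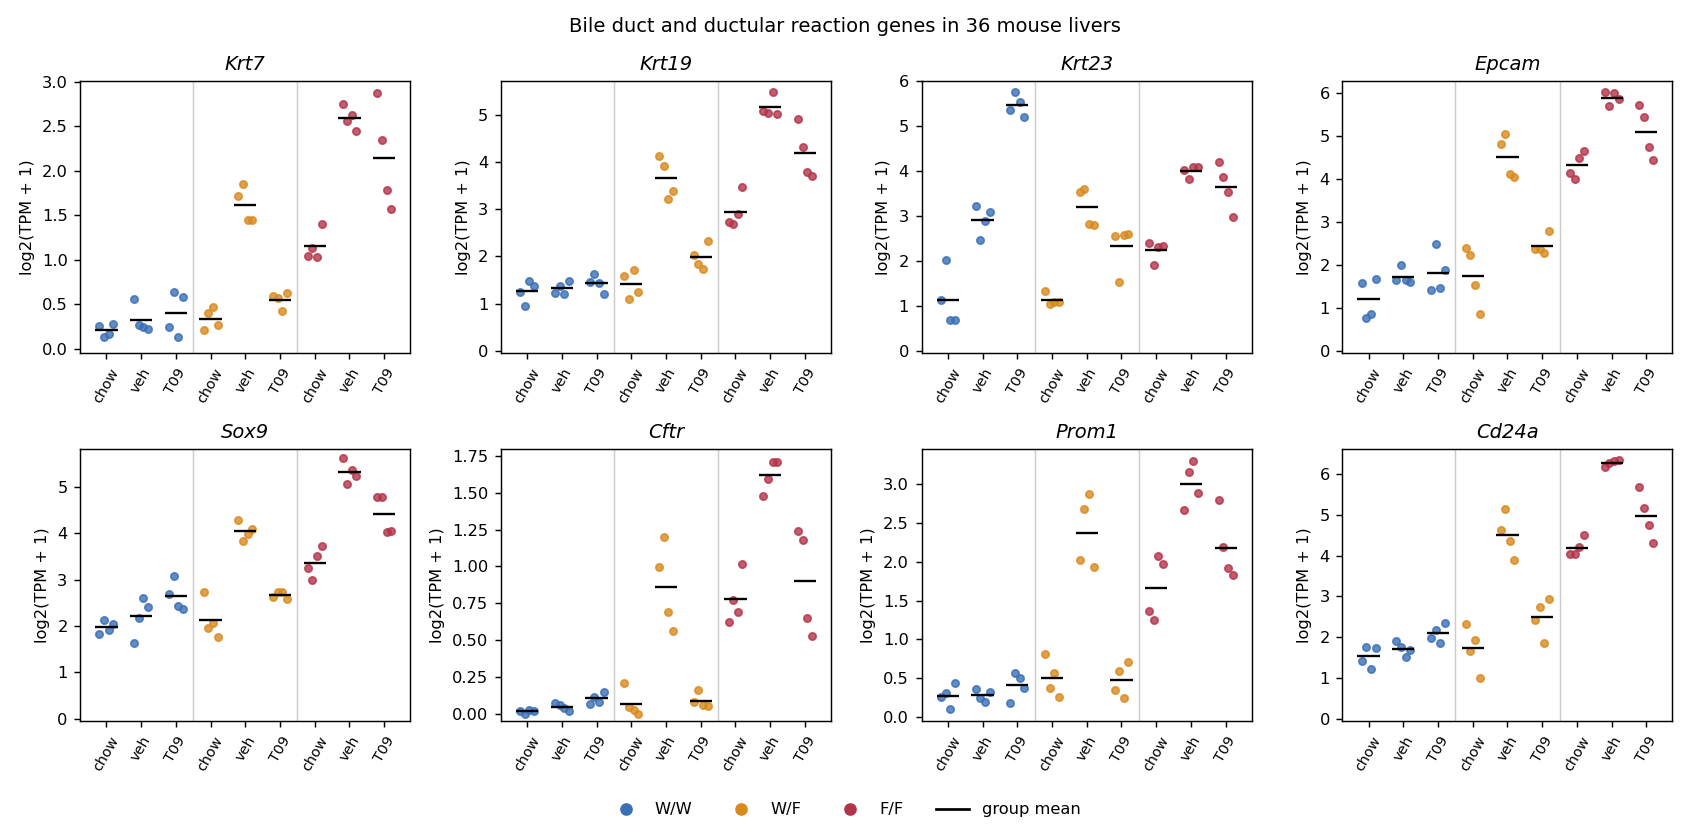
Level of each of the 8 genes as log2(TPM + 1) in 36 livers, by genotype (W/W, W/F, F/F) and treatment (chow; veh, MASH diet with vehicle; T09, MASH diet with T0901317). Points are single livers and bars are group means. In 7 panels F/F vehicle livers have the highest mean, whereas Krt23 has its highest in W/W livers on T0901317.

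For the 7 genes other than Krt23, the highest mean was that of F/F vehicle, and the next 3 were those of F/F T0901317, W/F vehicle and F/F chow, with W/F vehicle ahead of F/F T0901317 for Prom1. In Krt19 these means were 35.2, 18.3, 12.0 and 6.91 TPM, and in Epcam 58.8, 35.2, 22.8 and 19.3 TPM. The other 5 groups, all 3 of W/W and both W/F groups on chow and T0901317, had lower means for each of the 7 genes, from 1.42 to 3.01 TPM in Krt19 and from 1.41 to 4.51 TPM in Epcam. Every F/F chow liver exceeded every liver of the next group down for all 7 genes, although in Sox9 a W/W T0901317 liver (7.45 TPM), of a group further down, exceeded the lowest F/F chow liver (6.92 TPM). Among those 5 groups, neighbours in the order overlapped for all 7 genes, except that the W/F T0901317 livers exceeded the W/W T0901317 livers in Krt19. The first 4 groups spanned a wide range, from 6.91 to 35.2 TPM in Krt19. F/F vehicle did not overlap F/F chow in any of the 8 genes (42.4% of all tested genes had no overlap in that direction). F/F vehicle livers lay above all F/F T0901317 livers, the next in order, for Krt19, Sox9, Cftr and Cd24a (29.2% of all tested genes did so). They overlapped the next group for Krt7, Epcam and Prom1. For Krt7 and Sox9 the W/F vehicle livers were also all above the F/F chow livers. No share over all genes is given for this, or for F/F chow against the next group down. Neither separation is therefore read as particular to these genes.

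On the MASH diet with vehicle, the duct genes rose above their chow level in W/F and F/F livers, and in W/W livers Krt23 alone passed the test. Of the 8 genes, 8 rose in W/F (52.4% of all tested genes were called higher, and 45.8% had no overlap in that direction), 8 rose in F/F (46.5%, and 42.4% with no overlap) and 1 rose in W/W (2.59% of all tested genes), with none called lower in any genotype. Because about as many genes were called higher in W/F and F/F as were not, the members' counts are read with their sizes. Of the 5 genes also expressed at 1 TPM in W/W, 1 rose in W/W, and 5 rose in each of the mutant genotypes. Their median difference was 2.25 in W/F, where the median over all tested genes was 0.39, 1.96 in F/F, where it was 0.32, and 0.23 in W/W, where it was -0.05.

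Krt19 shows this pattern. W/W livers held 1.38, 0.924, 1.77 and 1.59 TPM on chow and 1.33, 1.58, 1.3 and 1.80 TPM on the diet with vehicle. W/F livers held 2.00, 1.14, 2.25 and 1.38 TPM on chow and 16.4, 14.0, 8.27 and 9.52 TPM on the diet. F/F livers held 5.58, 5.47, 6.46 and 10.1 TPM on chow and 33.1, 32.1, 44.0 and 31.6 TPM on the diet. The W/W groups overlapped throughout, while every W/F and F/F liver on the diet was above every chow liver of its genotype. In W/F Krt19 rose by 2.25 (SE 0.219, adjusted p 4.09e-10), in F/F it rose by 2.22 (adjusted p 1.81e-09), and it differed by 0.06 in W/W (95% interval -0.39 to 0.51).

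Sox9 moved in the same direction. Its levels were 2.55, 3.38, 2.75 and 3.10 TPM in W/W chow livers and 2.10, 3.53, 5.12 and 4.32 TPM in W/W vehicle livers. In W/F livers they were 5.62, 2.91, 3.19 and 2.37 TPM on chow and 18.4, 13.2, 14.8 and 16.1 TPM with vehicle, and in F/F livers 8.47, 6.92, 10.3 and 12.3 TPM on chow and 48.2, 32.7, 40.2 and 36.6 TPM with vehicle. Chow and vehicle livers overlapped in W/W and did not in W/F or F/F. The rise was 1.92 in W/F (adjusted p 4.46e-09) and 1.96 in F/F (adjusted p 7.95e-09), and the difference in W/W was 0.23 (95% interval -0.20 to 0.66).

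Among the surface proteins, Epcam went from 4.29, 3.70, 1.87 and 0.8 TPM on chow to 26.9, 32.2, 16.4 and 15.5 TPM with vehicle in W/F livers. In F/F livers it went from 16.6, 15.0, 21.6 and 24.1 TPM to 63.8, 51.1, 63.3 and 57.0 TPM. W/W livers had 1.97, 0.711, 0.805 and 2.17 TPM on chow and 2.12, 2.98, 2.12 and 2.02 TPM with vehicle. The 2 mutant genotypes had no overlap between diet and chow, and F/F livers on chow already stood at about the level of the lower W/F livers on the diet. Epcam rose by 2.75 in W/F (adjusted p 3.59e-09) and 1.58 in F/F (adjusted p 5.15e-05). Cd24a rose by 2.78 in W/F and 2.08 in F/F (adjusted p at most 3.71e-06, limma). As a description, Krt7 rose by 1.28 in W/F and 1.44 in F/F, and Cftr by 0.79 and 0.85. In W/W the differences of Krt7, Epcam, Cftr, Prom1 and Cd24a ran from 0.00 to 0.50 with adjusted p from 0.308 to 1.00. The W/F vehicle libraries were deeper than the W/F chow libraries, 23.5 to 34.5 against 20.7 to 21.8 M reads without overlap, and the part of depth in the W/F difference was not tested.

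With the diet response of each mutant genotype set against that of W/W, 7 of the 8 genes, all but Krt23, differed for W/F (49.5% of all tested genes were called higher in this difference of responses) and the same 7 for F/F (41.5%). Without Krt7, Cftr and Prom1, 4 of 5 genes differed in each. Krt19 gained 2.19 more in W/F than in W/W (adjusted p 1.22e-06), and F/F gained 2.16 more (adjusted p 4.30e-06). The corresponding differences were 2.60 and 1.90 for Cd24a and 1.69 and 1.72 for Sox9. The F/F difference of Epcam, 1.07 with adjusted p 0.0391, was close to the threshold: its call was lost on rescaling (adjusted p 0.306) and on leaving out any 1 of 10 of the 16 livers (F/F chow replicates 1 and 2, F/F vehicle 1, 3 and 4, W/W chow 1 and 4, or W/W vehicle 1, 3 and 4; adjusted p up to 0.0878). Leaving out W/W vehicle replicate 1, with its pancreatic transcripts, or W/F T0901317 replicate 2 changed no other call of the 8 genes.

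The comparison of genotypes on the diet with vehicle, which bears on the receptor mutation in the liver on the disease-promoting diet, gave the widest separation. All 8 genes were higher in F/F than in W/W, with no overlap (69.3% of all tested genes were called higher and 64.4% had no overlap in that direction). Without Krt7, Cftr and Prom1, 5 of 5 genes were called higher. The median of the 5 genes was 3.84, against 0.70 over all tested genes. Rescaling each library by its median ratio to the average library brings the second value near 0 by construction (0.04), so a shift of the scale and a broad rise cannot be told apart. On that scale 7 of the 8 genes were called. Of all genes called there, 53.1% were higher, against 90.7% before rescaling. The share of all tested genes called after rescaling is not given. Counts on rescaling, here and below, therefore stand without a background.

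On the log2(TPM + 1) scale Cd24a differed most. Its vehicle levels were 2.76, 2.39, 1.87 and 2.21 TPM in W/W, 23.7, 34.5, 19.6 and 14.0 TPM in W/F and 71.0, 76.2, 78.5 and 80.3 TPM in F/F. The 3 genotypes were fully separate and ordered by the number of mutant alleles. The ratio of mean F/F to mean W/W was 33.1, and the fitted difference was 4.56 (SE 0.262, adjusted p 3.51e-15). Epcam, with means of 2.31 ± 0.446, 22.8 ± 8.18 and 58.8 ± 6.01 TPM in W/W, W/F and F/F vehicle livers (SD, n = 4), was 25.4 times as high in F/F as in W/W. The ratio was 23.4 for Krt19, 10.5 for Sox9, 33.2 for Prom1 and 19.8 for Krt7, the last 2 against W/W means under 1 TPM.

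The genes of lower abundance were separated too. Prom1 stood at 0.288, 0.183, 0.140 and 0.246 TPM in W/W vehicle livers, at 3.05, 5.39, 6.30 and 2.82 TPM in W/F and at 5.36, 7.89, 8.82 and 6.43 TPM in F/F. W/F and F/F overlapped in Prom1, and both were above W/W. Krt7 stood at 0.468, 0.201, 0.186 and 0.167 TPM in W/W, at 2.29, 2.62, 1.71 and 1.73 TPM in W/F and at 5.71, 4.88, 5.17 and 4.46 TPM in F/F, with no overlap between genotypes. The highest W/W value of Krt7 came from replicate 1, the library with pancreatic transcripts, whose part in that value was not tested. Cftr stood at 0.0531, 0.0391, 0.0259 and 0.0126 TPM in W/W, which is 10 reads in all, at 0.993, 1.302, 0.614 and 0.476 TPM in W/F (264 reads) and at 1.79, 2.02, 2.28 and 2.28 TPM in F/F (584 reads). The channel transcript was therefore near the limit of detection in W/W livers and readily counted in both mutant genotypes. As a description, the F/F difference from W/W was 2.72 for Prom1, 2.27 for Krt7 and 1.58 for Cftr.

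Heterozygous livers stood between the homozygotes on vehicle. All 7 genes other than Krt23 were higher in W/F than in W/W without overlap (61.6% of all tested genes were called higher and 54.8% had no overlap in that direction), with a median over the 5 genes of 2.34 against 0.52 over all genes. All 8 were higher in F/F than in W/F (19.0% of all tested genes were called higher and 24.4% had no overlap in that direction), 7 of them without overlap, with a median over the 5 genes of 1.39 against 0.18. Of the 5 genes, 4 were called higher in W/F than in W/W, and 5 in F/F than in W/F. Cd24a had the largest of the F/F to W/F differences, 1.76 (adjusted p 2.27e-05), and Krt19 followed at 1.51 (adjusted p 1.70e-05). The calls for Krt23 (0.81, adjusted p 0.0279) and Prom1 (0.63, adjusted p 0.0315) were the weakest. On rescaling they had adjusted p of 0.169 and 0.141. The Krt23 call was lost without F/F vehicle replicate 1, 3 or 4 or W/F vehicle 3 or 4 (adjusted p up to 0.103), and the Prom1 call without F/F vehicle 2 or 3 or W/F vehicle 1 or 4 (adjusted p up to 0.139).

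F/F livers had higher duct gene levels already on chow. There all 8 genes were higher in F/F than in W/W, 7 of them without overlap (43.0% of all tested genes were called higher and 35.1% had no overlap in that direction). Epcam had the largest difference, 3.11 (SE 0.300, adjusted p 3.86e-09), with 15.0 to 24.1 TPM in F/F and 0.711 to 2.17 TPM in W/W. Cd24a followed, at 15.4, 15.4, 17.4 and 21.7 TPM in F/F livers where W/W livers had 1.69, 2.40, 1.33 and 2.32 TPM, a difference of 2.65 (adjusted p 4.88e-09). Krt19, Prom1, Sox9, Krt23, Krt7 and Cftr differed by 0.76 to 1.69, and the median of the 5 genes was 1.69 against 0.29 over all genes. Of these 5 genes, 5 were called higher. Cftr gave 210 reads in the 4 F/F chow livers and 3 reads in the 4 W/W chow livers, where 1 library is listed at 0, so no fold is given. Krt23 overlapped, because W/W chow replicate 2 had 3.03 TPM where F/F livers began at 2.73 TPM.

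On chow the heterozygous livers could not be told from W/W by these genes. None of the 8 genes was called between W/F and W/W on chow by limma, and none had an unadjusted p under 0.05 (0.487% of all tested genes were called in either direction). The largest difference was that of Epcam, 0.54 (95% interval -0.08 to 1.15, adjusted p 0.969). The 95% intervals of the other 7 differences ended at or below 0.73. All 8 genes were higher in F/F than in W/F on chow without overlap (37.9% of all tested genes were called higher and 32.3% had no overlap in that direction), by a median over the 5 genes of 1.54 against 0.26 over all genes. Without Krt7, Cftr and Prom1, 5 of 5 genes were called higher in F/F. Cd24a showed this as 4.04, 2.15, 2.83 and 0.994 TPM in W/F beside the F/F values above, a difference of 2.46 (adjusted p 3.29e-08).

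T0901317 lowered the duct genes in W/F livers. All 8 were lower than with vehicle, without overlap (59.3% of all tested genes were called lower and 51.6% had no overlap in that direction), by a median over the 5 genes of -1.67 where the median over all genes was -0.49. Of the 5 genes, 5 were called lower. Krt19 on T0901317 stood at 3.10, 2.56, 2.33 and 4.05 TPM in W/F, so every liver was below the lowest vehicle liver of 8.27 TPM. Epcam stood at 4.16, 4.15, 3.82 and 5.92 TPM and Sox9 at 5.2, 5.67, 5.68 and 4.99 TPM. Epcam fell by 2.06 (adjusted p 7.52e-07), Cd24a by 2.02 (adjusted p 1.18e-07), Krt19 by 1.67 (adjusted p 1.40e-07) and Sox9 by 1.37. As a description, Prom1 fell by 1.90, Krt7 by 1.07 and Cftr by 0.77, from 264 reads to 21 reads in the 4 livers. Krt23 fell by 0.87 (adjusted p 0.00495), and this call was lost on rescaling (-0.35, adjusted p 0.297). On T0901317 none of the 7 genes other than Krt23 was called between W/F and W/W (3.65% of all tested genes were called higher and 6.23% lower), although Krt19 was higher without overlap (difference 0.56, 95% interval 0.11 to 1.007, adjusted p 0.111; 5.88% of all tested genes had no overlap in that direction). Krt19 passed on rescaling (0.60, adjusted p 0.0487), and Krt19 and Epcam (0.75, adjusted p 0.0462) passed when libraries were weighted by how well they fitted the model (array weights).

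In F/F livers the agonist lowered most of the genes, and they stayed above W/W. All 7 genes other than Krt23 were lower with T0901317 than with vehicle, 4 of them without overlap (31.2% of all tested genes were called lower and 29.2% had no overlap in that direction), with a median over the 5 genes of -0.91 against -0.24 over all genes. Of the 5 genes, 4 were called lower. Cd24a fell by 1.3 (adjusted p 0.000567), with 49.9, 35.1, 26.0 and 18.9 TPM on T0901317. Krt19 fell by 0.98 (adjusted p 0.00137), with 29.2, 19.0, 12.8 and 12.1 TPM. Sox9 fell by 0.91 (adjusted p 0.00187), with 26.6, 26.4, 15.4 and 15.5 TPM. The SD was larger in F/F T0901317 than in any other group for Krt7, Krt19, Epcam, Cftr and Cd24a. Replicate 1 was the highest of its group in 8 of 8 genes, summing to 188.8 TPM, and replicate 4 was the lowest in 7, summing to 79.3 TPM. Without replicate 1 the count was again 7. The responses of F/F and W/F were not tested against each other. The calls for Krt7 (-0.45, adjusted p 0.0445) and Epcam (-0.81, adjusted p 0.0366) were lost on rescaling (adjusted p 0.392 and 0.223) and on leaving out single livers. These were F/F T0901317 replicates 3 and 4 for both genes, every F/F vehicle replicate for Krt7 and F/F vehicle 1, 3 and 4 for Epcam (adjusted p up to 0.245 and 0.152).

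On T0901317 all 7 genes other than Krt23 remained higher in F/F than in W/W, without overlap (56.3% of all tested genes were called higher and 50.4% had no overlap in that direction). The differences ran from 0.80 in Cftr to 3.28 in Epcam (adjusted p 4.11e-10). Without Krt7, Cftr and Prom1, 4 of 5 genes were called higher and 1 lower in F/F than in W/W, and 5 of 5 were higher than in W/F. All 8 genes were higher in F/F than in W/F on T0901317 without overlap (58.5% of all tested genes were called higher and 46.4% had no overlap in that direction), from 0.81 in Cftr to 2.64 in Epcam (adjusted p 3.95e-08).

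In W/W livers T0901317 changed Krt23 and no other gene of the 8 past the threshold (7.87% of all tested genes were called higher and 2.91% lower). The differences of the other 7 ran from 0.06 in Cftr to 0.43 in Sox9 (adjusted p 0.214), and Sox9 was the only one of the 7 with an unadjusted p under 0.05. The agonist response of W/F differed from that of W/W in all 8 genes (53.2% of all tested genes were called lower in this difference of responses). The agonist response of F/F differed from that of W/W in 6 of 8 (27.2% of all tested genes were called lower), the exceptions being Krt7 (-0.53, adjusted p 0.103) and Epcam (-0.90, adjusted p 0.104). Without Krt7, Cftr and Prom1, 5 of 5 genes differed for W/F and 4 of 5 for F/F. For Cd24a the W/F response less that of W/W was -2.39 (adjusted p 3.51e-06), and the F/F response less that of W/W was -1.67 (adjusted p 0.00145). Leaving out F/F T0901317 replicate 1 brought Krt7 and Epcam past the threshold (adjusted p 0.00579 and 0.0439), and rescaling left 4 of the 6, without Krt19 (adjusted p 0.0581) and Prom1 (adjusted p 0.0671). The diet and agonist comparisons share the vehicle livers, so their opposite signs are not independent of each other.

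**Figure D2:**
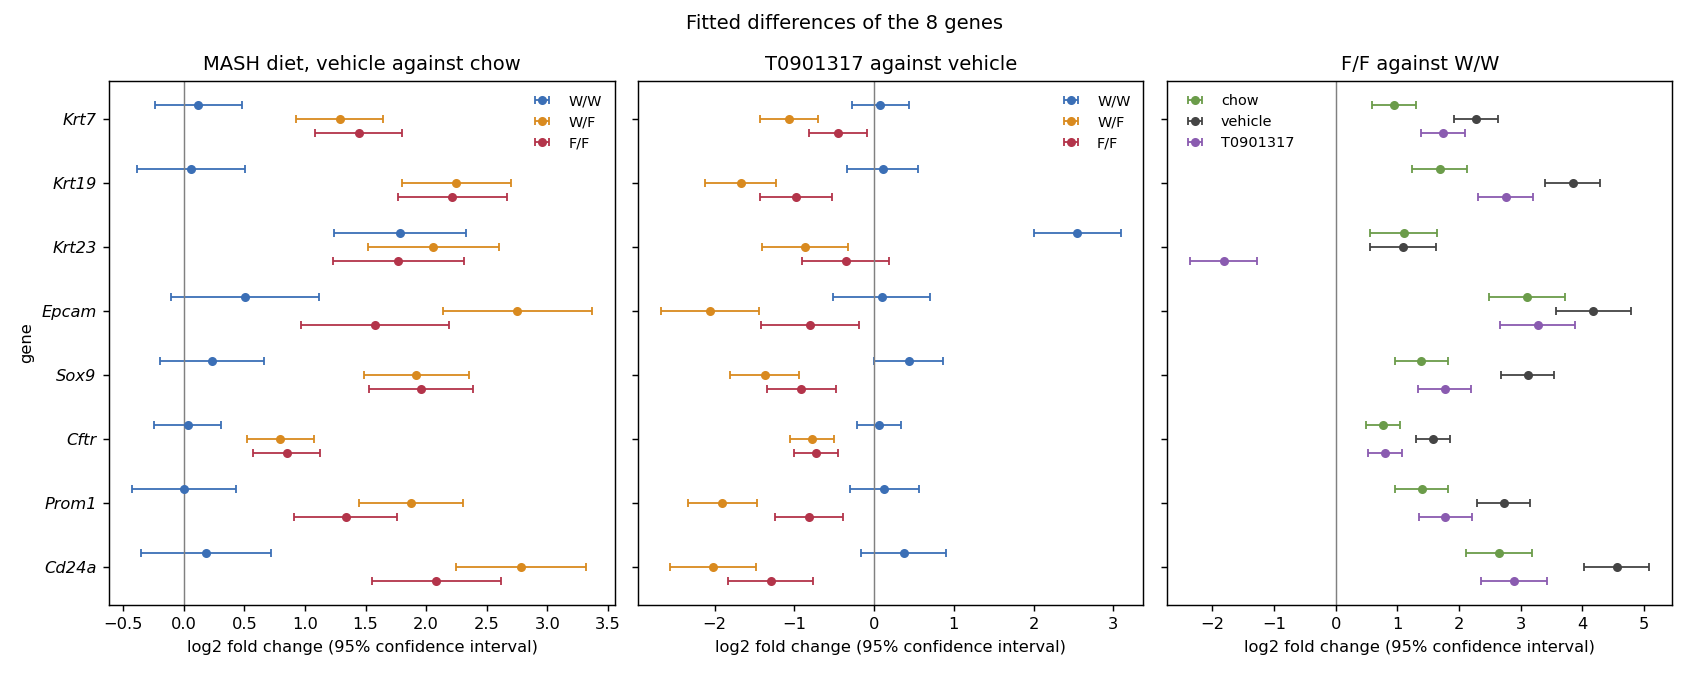
Fitted differences of the 8 genes on the log2(TPM + 1) scale, with 95% confidence intervals from limma, for the diet (left), T0901317 (middle) and the F/F genotype (right). Intervals for W/F and F/F lie above 0 in the left panel, W/W intervals cross 0 except in Krt23, and Krt23 is the gene whose T0901317 estimate in W/W, 2.55, stands far above 0.

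Krt23 followed a course of its own. In W/W livers it stood at 1.20, 3.03, 0.612 and 0.605 TPM on chow, at 8.31, 4.53, 6.37 and 7.53 TPM on the diet with vehicle and at 40.2, 52.9, 45.5 and 35.8 TPM with T0901317. Each step was without overlap. It rose by 1.78 with the diet (SE 0.265, adjusted p 4.17e-05) and by a further 2.55 with T0901317 (adjusted p 4.25e-08), a ratio of means of 6.52 (12.1% of all tested genes had no overlap upward with T0901317 in W/W, and 3.74% with the diet). In W/F livers it stood at 1.53, 1.05, 1.11 and 1.12 TPM on chow, at 10.6, 11.2, 6.09 and 5.97 TPM with vehicle and at 4.92, 1.90, 4.98 and 5.10 TPM with T0901317. In F/F livers it stood at 4.31, 2.73, 3.94 and 4.02 TPM on chow, at 15.3, 13.1, 16.0 and 16.0 TPM with vehicle and at 17.3, 13.6, 10.6 and 6.88 TPM with T0901317. On the diet with vehicle Krt23 was above its chow level in all 3 genotypes, by 2.06 in W/F (adjusted p 8.57e-08) and 1.77 in F/F (adjusted p 1.75e-06). These differences did not depart from that of W/W by more than their error (0.27, 95% interval -0.49 to 1.04 in W/F, and -0.01, 95% interval -0.78 to 0.75 in F/F).

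The agonist raised Krt23 in W/W and in neither mutant genotype. The response less that of W/W was -3.42 in W/F (95% interval -4.18 to -2.65, adjusted p 1.69e-08) and -2.91 in F/F (95% interval -3.67 to -2.14, adjusted p 2.02e-06), and in F/F itself the difference was -0.36 (95% interval -0.90 to 0.18, adjusted p 0.296). With T0901317 every W/W liver was therefore above every mutant liver, and the W/W mean was 10.3 times that of W/F and 3.60 times that of F/F. Fitted against W/W, the W/F difference was -3.14 (adjusted p 3.11e-10) and the F/F difference -1.82 (adjusted p 1.05e-06), without overlap (6.23% and 6.96% of all tested genes were called lower in these comparisons, and 9.25% and 6.27% had no overlap in that direction). With vehicle the order was the reverse for F/F, where Krt23 was higher than in W/W by 1.09 (adjusted p 0.000472), a call that was lost on rescaling (0.31, adjusted p 0.350), and in W/F it differed from W/W by 0.28 (adjusted p 0.36).

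**Figure D3:**
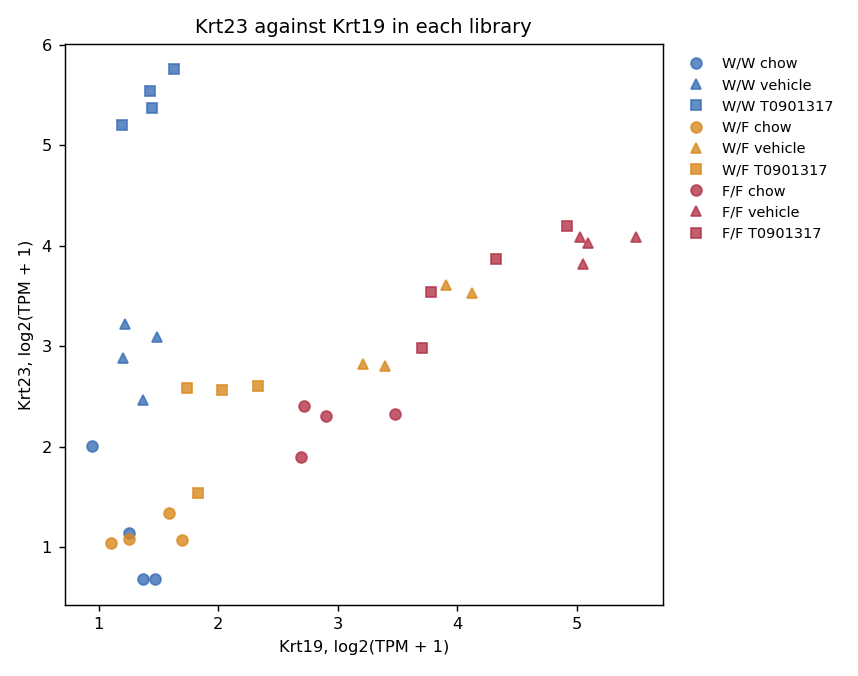
Krt23 against Krt19 in each of the 36 livers, both as log2(TPM + 1); colour gives the genotype and shape the treatment. The 4 W/W livers on T0901317 (35.8 to 52.9 TPM of Krt23, 1.29 to 2.10 TPM of Krt19) stand apart at the upper left from the band formed by the mutant livers.

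Over the 9 group means of log2(TPM + 1), the 7 genes other than Krt23 rose and fell together, with Pearson r from 0.965 to 0.996 in their 21 pairs, while Krt23 had r from 0.336 to 0.485 with them. These values describe 9 means that share libraries and the scale shift, and no test is attached. The genes named next for these 7, picked as the closest, had r of 0.995 or more, so such values are not particular to the set. Among tested genes with a mean of at least 1 TPM, those with the group means most like Krt19 were Glis2 (r 0.999), Arhgef17 and Cx3cl1 (both 0.998). Those most like Epcam were Pdgfra, Robo2 and Cldn7 (0.996 to 0.997), and those most like Sox9 were Lamb2, Aebp1 and Rtraf (0.998 to 0.999). For Cd24a they were Npdc1, Vsig10 and Tmem119, for Prom1 Lmna, Fam92a and Ikbip, for Krt7 Plcd3 and Hpca, and for Cftr Gpm6b, Bspry and Hid1 (0.995 to 0.999). For Krt23 the closest were Cryzl2, Acot2 and Rasgrp2, at lower values of 0.963 to 0.966.

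Other genes of the biliary epithelium were counted in the same comparisons. Of 20 further cholangiocyte genes, 18 rose and 1 fell with the diet in W/F (52.4% of all tested genes rose), 16 rose and 0 fell in F/F (46.5%), and 0 rose and 2 fell in W/W (2.59% rose and 10.3% fell). With T0901317, 18 fell and 1 rose in W/F (59.3% of all tested genes fell), 13 fell in F/F (31.2%) and 1 rose in W/W (7.87% rose). Between F/F and W/W on vehicle 18 were higher and 0 lower (69.3% of all tested genes were higher), with a median of 2.37 against 0.70 over all genes (17 higher and 2 lower on rescaling). Spp1, which encodes the secreted glycoprotein osteopontin and is made by ducts and by other cells, had the largest such difference, from 48.7 ± 4.53 TPM in W/W to 3174 ± 304 TPM in F/F (SD, n = 4; difference 5.997, adjusted p 1.34e-16). Ddr1, a collagen receptor of epithelia, followed at 4.62 (adjusted p 1.32e-17).

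Genes of the signals that govern biliary fate were called in shares that were in part close to those of all tested genes. Of 9 tested Notch genes, 8 rose with the diet in W/F and 6 in F/F, where 52.4% and 46.5% of all tested genes rose, and 1 rose and 1 fell in W/W. Between F/F and W/W on vehicle, where 69.3% of all tested genes were higher, all 9 were higher (7 on rescaling), led by the glycosyltransferase Lfng at 2.16 (adjusted p 1.17e-09) and the ligand Jag1 at 2.03 (adjusted p 1.54e-10). Of 9 tested Hippo effectors and YAP targets, 9 were higher in the same comparison, but rescaling gave 6 higher and 2 lower. They were led by Ctgf, a secreted matrix protein, at 3.77 (adjusted p 6.95e-11) and Ankrd1, a nuclear ankyrin protein, at 3.56 (adjusted p 1.66e-12). Of 8 tested ligands, receptors and integrins known from ductular reactions, 8 were higher, on rescaling too, with the TWEAK receptor Tnfrsf12a at 3.61 (adjusted p 1.09e-11) and Tgfb2 at 2.45 (adjusted p 1.49e-13). With T0901317, where 59.3% of all tested genes fell in W/F and 31.2% in F/F, all 8 fell in both (4 of 8 in F/F on rescaling), and 8 of 9 Notch genes fell in W/F, while in F/F 6 fell and 1 rose. The YAP list fell in 8 of 9 genes in W/F and 6 in F/F, where rescaling left 1.

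**Figure D4:**
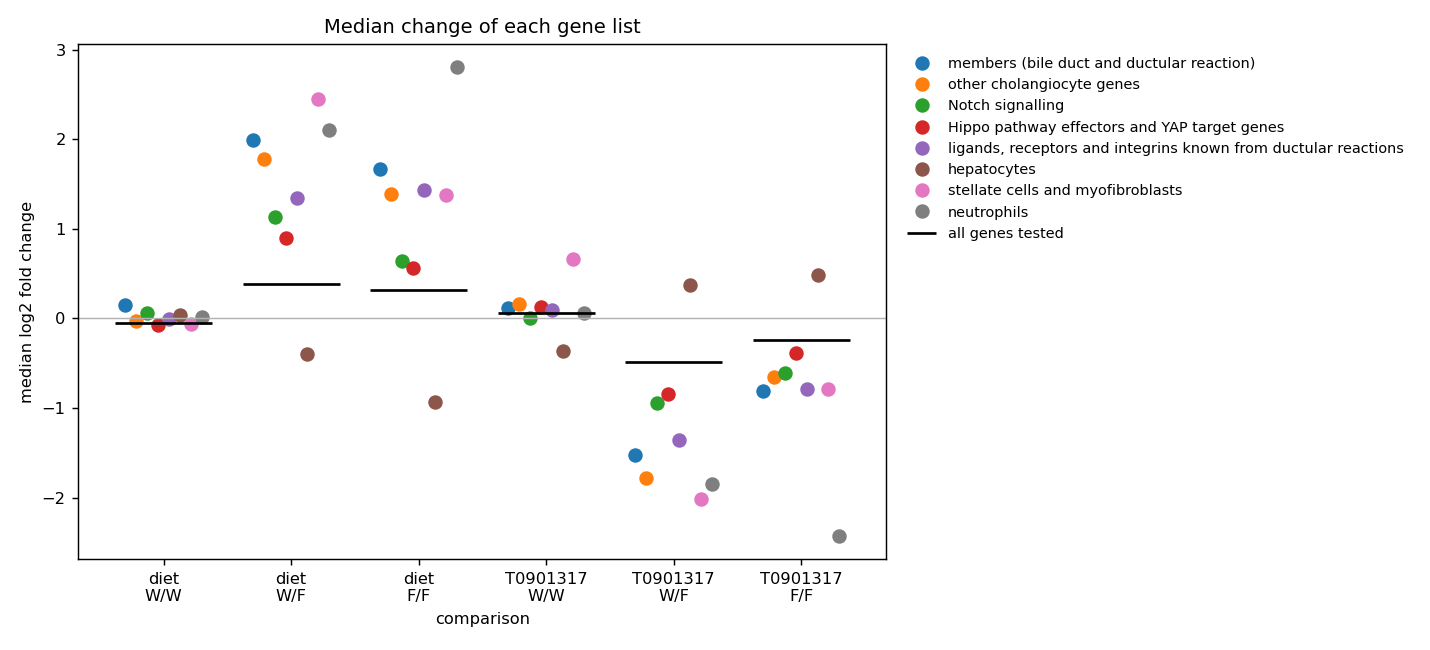
Median log2 fold change of each gene list (coloured points) and of all 16638 tested genes (black bars) for the diet and for T0901317 in each genotype. The medians of all 8 duct genes stand above the bar with the diet in W/F (1.99) and F/F (1.67) and below it with T0901317 (-1.52 and -0.81), as do the stellate cell and neutrophil lists, while in these 4 comparisons the hepatocyte list stands on the other side of the bar. The 8 include Krt7, Cftr and Prom1, which passed the filter only through mutant livers. The medians of the other 5, not plotted, were 2.25, 1.96, -1.67 and -0.91 in the same order.

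Markers of other liver cells moved with the duct genes, and their part in the duct gene differences was not tested. Between F/F and W/W on vehicle, where 69.3% of all tested genes were higher and 7.13% lower, 8 of 8 stellate cell genes were higher (7 higher and 1 lower on rescaling), led by Timp1 (6.03) and Col1a1 (5.95), and their summed level was 536.2 to 721.1 TPM against 17.8 to 40.14 TPM. All 7 tested neutrophil genes were higher, led by S100a9 (5.48) and S100a8 (5.07), with sums of 150.9 to 444.5 TPM in F/F and 3.43 to 7.55 TPM in W/W. Macrophage genes divided, 4 higher and 4 lower, from Gpnmb of lipid-laden macrophages (8.03) to Clec4f of resident Kupffer cells (-5.76), and their sum was 777.9 to 1011 TPM against 187.0 to 225.5 TPM. All 6 proliferation genes were higher, led by Mki67 (3.03) and Cdk1 (2.68), with sums of 33.8 to 51.5 TPM against 1.68 to 3.10 TPM. Of 10 hepatocyte genes 7 were lower and 0 higher, led by Cyp2e1 (-2.73) and Serpina1c (-1.76), and their sum was 38950 to 44340 TPM in F/F where W/W had 82530 to 105000 TPM. Of 4 tested mesothelial genes 3 were higher, led by Gpm6a (2.04) and Msln (1.59), and 2 of 4 tested B cell genes, led by Cd22 (1.80) and Cd79b (1.06). Red cell genes divided, 4 higher and 2 lower, with Hbb-bt at 1.24 and Alas2 at -1.72, and rescaling left 0 higher. Neither of the 2 tested pancreatic acinar genes was called (Cela2a at -1.02, Cela1 at 0.08). Adjusted p of the named genes that were called ran from 8.95e-17 to 0.000401. The duct genes summed to 219.9 to 258.3 TPM in F/F vehicle livers and to 15.4 to 18.3 TPM in W/W vehicle livers.

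For mapping, exons of Krt7, Cftr and Prom1 overlap opposite-strand genes over 1.09%, 1.66% and 5.91% of their length, and Prom1 shares 5.10% of its sequence, in runs of 50 bases, with other genes. Cd24a shares 2.75% of its sequence with 1 other gene and Cftr 1.07% with 1. Whether counting used strand is not given in the sources used here, so a small share of the reads of these genes may be assigned either way. Krt19, Krt23, Epcam and Sox9 share none.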

How the data were processed

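The deposited table held TPM per gene, computed by the authors from polyA RNA-seq of 36 liver samples in 9 groups of 4. The submitters' processing notes name Trimmomatic 0.36, STAR 2.5.2b, featureCounts of Subread 1.5.2 and GRCm38. Groups came from the sample labels. Depth was recovered from TPM times GENCODE M21 exon length: 93.7 to 95.6% of values under 20 reads fell within 0.1 of a whole number.

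TPM plus a pseudocount of 1 were log2-transformed, and genes reaching 1 TPM in 4 or more libraries were tested in 19 contrasts of the 9 group means with limma 3.58.1 in R 4.3.3 (moderated test with a mean trend, two-sided). Benjamini-Hochberg adjustment ran over all 16638 genes of a contrast, with a threshold of 0.05. TPM are shares of a library, so a change in abundant transcripts moves all other genes. The alternative scaling divided libraries by median-of-ratios factors over 13950 genes. The script was tested on simulated data.

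The members and lists were chosen with earlier results of these data known, and the medians over 5 of the members were added after these results were seen. All members were named, for each further list the 2 tested genes with the largest absolute difference between F/F and W/W on vehicle, and for each member the 3 genes most like it, of which 1 for Krt7 is not reported here. Genes under 1 TPM in all groups numbered 2 of the ligand list, 3 of the mesothelial, 1 of the pancreatic, 3 of the B cell and 1 of the red cell list.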

Additional observations from a re-analysis of the deposited data

Results flagged for a closer look

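In 6 of the 72 sets of 4 livers, 8 genes in 9 groups, 1 liver lay apart from the other 3 by Dixon's test, which chance gives in about 1 of 20 sets. Krt7 was 0.468 TPM in W/W vehicle replicate 1 against 0.167 to 0.201 TPM in the others. Krt19 was 44.0 TPM in F/F vehicle replicate 3 against 31.6 to 33.1 TPM. Krt23 was 1.53 TPM in W/F chow replicate 1 against 1.05 to 1.12 TPM, and 1.90 TPM in W/F T0901317 replicate 2 against 4.92 to 5.10 TPM. Epcam was 5.92 TPM in W/F T0901317 replicate 4 against 3.82 to 4.16 TPM, and 2.98 TPM in W/W vehicle replicate 2 against 2.02 to 2.12 TPM.

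Responses that differed between genotypes by the interaction test in limma (adjusted p under 0.05) numbered 28 of 32. For Krt7, Cftr and Prom1, which reached 1 TPM in 0 W/W libraries, these differences are a description. Among the other 5 genes, 4 differed in each diet response. For T0901317, 5 of these differed in W/F and 4 in F/F. Of all tested genes, 49.5% were called higher in the diet response of W/F against W/W and 41.5% in that of F/F, and 53.2% and 27.2% were called lower in the T0901317 responses. The diet response of W/F exceeded that of W/W by 1.17 in Krt7, 2.19 in Krt19, 2.25 in Epcam, 1.69 in Sox9, 0.764 in Cftr, 1.87 in Prom1 and 2.60 in Cd24a on the log2(TPM + 1) scale. The diet response of F/F exceeded that of W/W by 1.33 in Krt7, 2.16 in Krt19, 1.07 in Epcam, 1.72 in Sox9, 0.818 in Cftr, 1.33 in Prom1 and 1.90 in Cd24a. The T0901317 response of W/F minus that of W/W was -1.14 in Krt7, -1.78 in Krt19, -3.42 in Krt23, -2.15 in Epcam, -1.81 in Sox9, -0.830 in Cftr, -2.03 in Prom1 and -2.39 in Cd24a. The T0901317 response of F/F minus that of W/W was -1.09 in Krt19, -2.91 in Krt23, -1.35 in Sox9, -0.782 in Cftr, -0.947 in Prom1 and -1.67 in Cd24a. For the diet, the differences came with a rise in the mutant livers and no call in W/W. For T0901317, the difference in Krt23 came with a rise in W/W, and in W/F also with a fall whose call was lost on rescaling. In the other genes it came with a fall in the mutant livers and no call in W/W.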

How the results depend on the processing

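Of the 19 counts of members called, 3 settings each moved 1 by more than 1.5 times. With a pseudocount of 0.1, T0901317 against vehicle in F/F gave 4 members in place of 7, and W/F against W/W on T0901317 gave 2 on rescaling and 3 with array weights in place of 1. The cause was not tested. A filter of at least 5 TPM, which left 6 of the 8 genes in the test (not Krt7 and Cftr), no filter, fits of the compared groups alone and the replicate block left all 19 counts within that range, and no called value changed sign under any setting run. Leaving out 1 liver at a time gave 6 to 8 members for F/F against W/F on vehicle, 5 to 7 for T0901317 in F/F, 6 to 8 for the T0901317 response of F/F minus W/W and 6 to 7 for the diet response of F/F minus W/W; the other 15 counts did not move. Replicate numbers were not taken to pair the samples. Correlations of deviations ran from -0.17 to 0.30 over 144 same-numbered pairs, 18 above 0.1. Over 432 different-numbered pairs they ran from -0.32 to 0.39, 38 above 0.1. Of 36 libraries, 11 were closest to their own number. The replicate block changed no call of the 8 genes, with 8 members called between F/F and W/W on vehicle. Replicate 1 was the deepest library in F/F chow, F/F T0901317, W/F vehicle, W/W chow and W/W T0901317 (29.1 to 35.8 M reads). The part of this depth was not tested. Depth limits Cftr most, with 3 to 24 reads per group in W/W livers.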

Other observations

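Krt8 and Krt18, the keratin pair that hepatocytes and cholangiocytes share, were looked up after their values were seen. Both are among the 20 further cholangiocyte genes counted above. On the diet with vehicle, Krt8 averaged 397.8 ± 35.7 TPM in W/W livers, 2577 ± 492 TPM in W/F livers and 1928 ± 288 TPM in F/F livers (SD, n = 4), and Krt18 averaged 301.4 ± 11.5, 1672 ± 287 and 1435 ± 86.1 TPM. Between F/F and W/F on vehicle, where all 8 duct genes were called higher in F/F, Krt8 differed by -0.41 (adjusted p 0.157, limma) and Krt18 by -0.21 (adjusted p 0.464). T0901317 lowered both in W/F, Krt8 by -2.18 (adjusted p 5.31e-10) and Krt18 by -1.98 (adjusted p 4.86e-10). In F/F the agonist gave differences of -0.18 in Krt8 (adjusted p 0.523) and -0.21 in Krt18 (adjusted p 0.377).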
